A study of Mus musculus with 12 samples.

Results

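The transcripts of 38 cell cycle and DNA replication genes were examined in mouse tumour macrophages that were sorted as YFP+ or YFP-. The genes were chosen by name among the 31110 distinct names on the array: 22 act in G2 and mitosis, 14 in S phase (the Mcm, Gins and Rrm families, Pcna, Tyms and the E cyclins), and Cdc6 and Cdt1 load the replicative helicase before S phase. Of the 38, 36 were measured well enough to be tested, among 20370 genes and features in all. Tyms, the thymidylate synthase, stood well above background on 3 YFP+ and 2 YFP- arrays, and Ccne2, the second E-type cyclin, on 0 of 12, so neither was tested.

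The study hybridised RNA from 12 macrophage samples to one-colour Agilent arrays, 6 sorted as YFP+ and 6 as YFP-, and each of 6 tumour numbers occurs once in each group. All came from tumours in the pancreas of female mice labelled as strain C57/B6, 8 to 10 weeks old, which had received implanted tumours, and the cells went from the sorter into lysis buffer. The genotype of these samples is labelled as not provided; the design text names wild-type, KPC and FLT3-CRE/LSL-YFP mice, so the reading of YFP as a mark of cells descended from Flt3-expressing progenitors rests on that text alone. How tumour numbers relate to animals is not labelled, so samples may share an animal, and p-values here cover only the spread among these 12 samples, which may be technical.

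A cell that divides switches on its cell cycle genes in waves. Before S phase, E2F factors drive the genes that license and copy DNA: ORC, CDC6 and CDT1 load the MCM ring, GINS joins it to form the working helicase, PCNA clamps the polymerase, and ribonucleotide reductase supplies deoxynucleotides. In G2 and mitosis, a later wave follows, driven by B-MYB and FOXM1 through the MuvB core, which binds the CHR element of promoters, often beside CCAAT boxes bound by NF-Y. In resting cells the same core, as part of the DREAM complex, holds these genes down. Macrophages of tissues and tumours can arise from blood monocytes, which divide little, or renew by local division, and transcripts such as Mki67 and Top2a are widely used to count dividing cells.

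Promoters of 7 members are shown because they carry the letters by which the later and the earlier wave are usually told apart. Each is the 170 bases before the RefSeq start in GRCm38.p6, 5′ to 3′ on the gene's own strand. Capitals mark matches to the CHR (TTTGAA or TTCAAA), to 3 E2F words (TTTCCCGC, TTTGGCGC, TTTCGCGC and their reverse complements) and to CCAAT or ATTGG. The mitotic members are Mki67 (chr7:135716380-135716549, minus strand), Cdk1 (chr10:69352913-69353082, minus), Cdc20 (chr4:118437344-118437513, minus) and Kif11 (chr19:37376212-37376381, plus). The S phase members are Mcm5 (chr8:75109339-75109508, plus), Mcm6 (chr1:128359706-128359875, minus) and Mcm7 (chr5:138171884-138172053, minus).
Mki67: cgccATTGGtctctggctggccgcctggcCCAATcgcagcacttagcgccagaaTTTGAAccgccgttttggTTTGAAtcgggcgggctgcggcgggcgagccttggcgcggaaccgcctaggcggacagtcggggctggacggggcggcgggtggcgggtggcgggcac
Cdk1: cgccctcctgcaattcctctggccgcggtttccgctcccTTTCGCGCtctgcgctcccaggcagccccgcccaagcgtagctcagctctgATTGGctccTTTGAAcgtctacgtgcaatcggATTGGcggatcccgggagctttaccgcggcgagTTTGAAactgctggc
Cdc20: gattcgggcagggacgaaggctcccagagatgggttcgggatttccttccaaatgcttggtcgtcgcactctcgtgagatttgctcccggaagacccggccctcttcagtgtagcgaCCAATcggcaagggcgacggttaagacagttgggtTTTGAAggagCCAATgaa
Kif11: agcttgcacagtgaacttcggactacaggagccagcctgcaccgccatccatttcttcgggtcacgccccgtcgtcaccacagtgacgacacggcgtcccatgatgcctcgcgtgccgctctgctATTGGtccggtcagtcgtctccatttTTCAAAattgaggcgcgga
Mcm5: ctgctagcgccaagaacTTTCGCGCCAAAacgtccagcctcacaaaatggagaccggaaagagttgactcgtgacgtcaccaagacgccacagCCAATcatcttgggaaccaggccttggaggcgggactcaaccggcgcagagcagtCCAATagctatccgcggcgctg
Mcm6: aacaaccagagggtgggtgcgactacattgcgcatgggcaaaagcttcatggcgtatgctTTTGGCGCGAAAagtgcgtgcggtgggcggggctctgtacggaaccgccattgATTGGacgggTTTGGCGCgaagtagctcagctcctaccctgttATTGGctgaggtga
Mcm7: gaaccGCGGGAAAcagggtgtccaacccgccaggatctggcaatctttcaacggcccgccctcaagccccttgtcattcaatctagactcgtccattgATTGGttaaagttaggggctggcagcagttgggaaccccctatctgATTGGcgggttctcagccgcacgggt

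In these stretches each of the 4 mitotic promoters holds a CHR word, and Mki67 and Cdk1 hold 2. Each of the 3 Mcm promoters holds an E2F word and no CHR word, and in Mcm5 and Mcm6 a pair of E2F words on opposite strands overlap. Over the whole RefSeq window of 300 bases (250 before to 50 after the start), the CHR word occurred in 12 of 17 mitotic promoters (70.6%), in 1 of 10 S phase promoters (10.0%, Mcm2) and in 20.2% of all 27025 promoters. An E2F word occurred in 1 of 17 mitotic promoters (5.88%, Cdk1), in 4 of 10 S phase promoters (40.0%, Mcm3, Mcm5, Mcm6 and Mcm7), in those of both Cdc6 and Cdt1, and in 2.12% of all. CCAAT occurred in 15 of 17 mitotic (88.2%) and 8 of 10 S phase promoters (80.0%), against 41.1% of all. A match describes letters in a window, not a bound site, and binding was not measured here. The promoters of Ccna2, Aurkb, Kif20a, Tpx2, Foxm1, Mcm4, Ccne2, Gins1 and Gins2 were not used here.

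The sorted samples carried their labelled identity: all 15 macrophage markers, among them Csf1r, Adgre1 and C1qa, were well above background on all 12 arrays, with a median difference of -0.11 between the groups and 0 called. Of 8 marker lists of other cells, the epithelial, fibroblast and erythroid lists held calls, all lower in YFP+. Of 11 epithelial markers tested 5 fell in YFP+ arrays (median -1.79), with a summed level, relative to each array's 75th percentile, of 5.31 to 12.5 in YFP+ and 16.1 to 42.8 in YFP- arrays. Of 12 fibroblast markers 8 fell (median -1.79; summed level 16.8 to 45.4 against 64.4 to 167), and of 6 erythroid markers 4 fell (median -2.10; 8.99 to 54.8 against 61.7 to 153). None of 11 B and plasma cell markers was called (median 0.76; 13.6 to 42.7 against 13.1 to 20.7), and Ms4a1, a defining B cell marker, was too dim to be tested. The 75th percentile of signal was 3260 to 3930 on YFP+ and 2121 to 3329 on YFP- arrays. The part of these differences in the cell cycle values was not tested, and in bulk samples fewer dividing cells and less RNA per dividing cell cannot be told apart.

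No member passed the test between YFP+ and YFP- macrophages. With limma's moderated test and Benjamini-Hochberg adjustment over all 20370 features at a threshold of 0.05, 0 of 36 members were called, while 356 features were (1.75%), 68 higher (0.334%) and 288 lower in YFP+ (1.41%). At an unadjusted p under 0.05 there was 1 member, Aurkb, on the side of higher signal in YFP+, against 11.2% of all features in either direction and 3.73% on that side. With slide as a block 0 members were called, beside 556 of all features. The lowest adjusted p of a member was 0.30. In 0 of 36 were the groups of arrays free of overlap (1.88% of all features). The differences themselves leaned one way: 30 of 36 were positive, that is, with a higher mean in YFP+ (47.2% of all features), with a median of 0.24 against -0.03 over all features on the log2 scale. The signs depended on the setting. Within slide 3, which set YFP+ tumours 3 and 4 against YFP- tumours 1 and 4, 8 of 36 were positive. With array brightness as a covariate 7 of 22 mitotic and 4 of 12 S phase members were positive, and with normexp background correction 12 of 22 and 10 of 12. Brightness nearly separates the groups (75th percentile 3260 to 3930 in YFP+ and 2121 to 3329 in YFP-). The fit with brightness as a covariate can therefore hardly tell group and brightness apart. Compared number by number, YFP+ was higher in 5 or 6 of the 6 tumour numbers for 8 of 36 members (13.2% of all features).

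**Figure D1:**
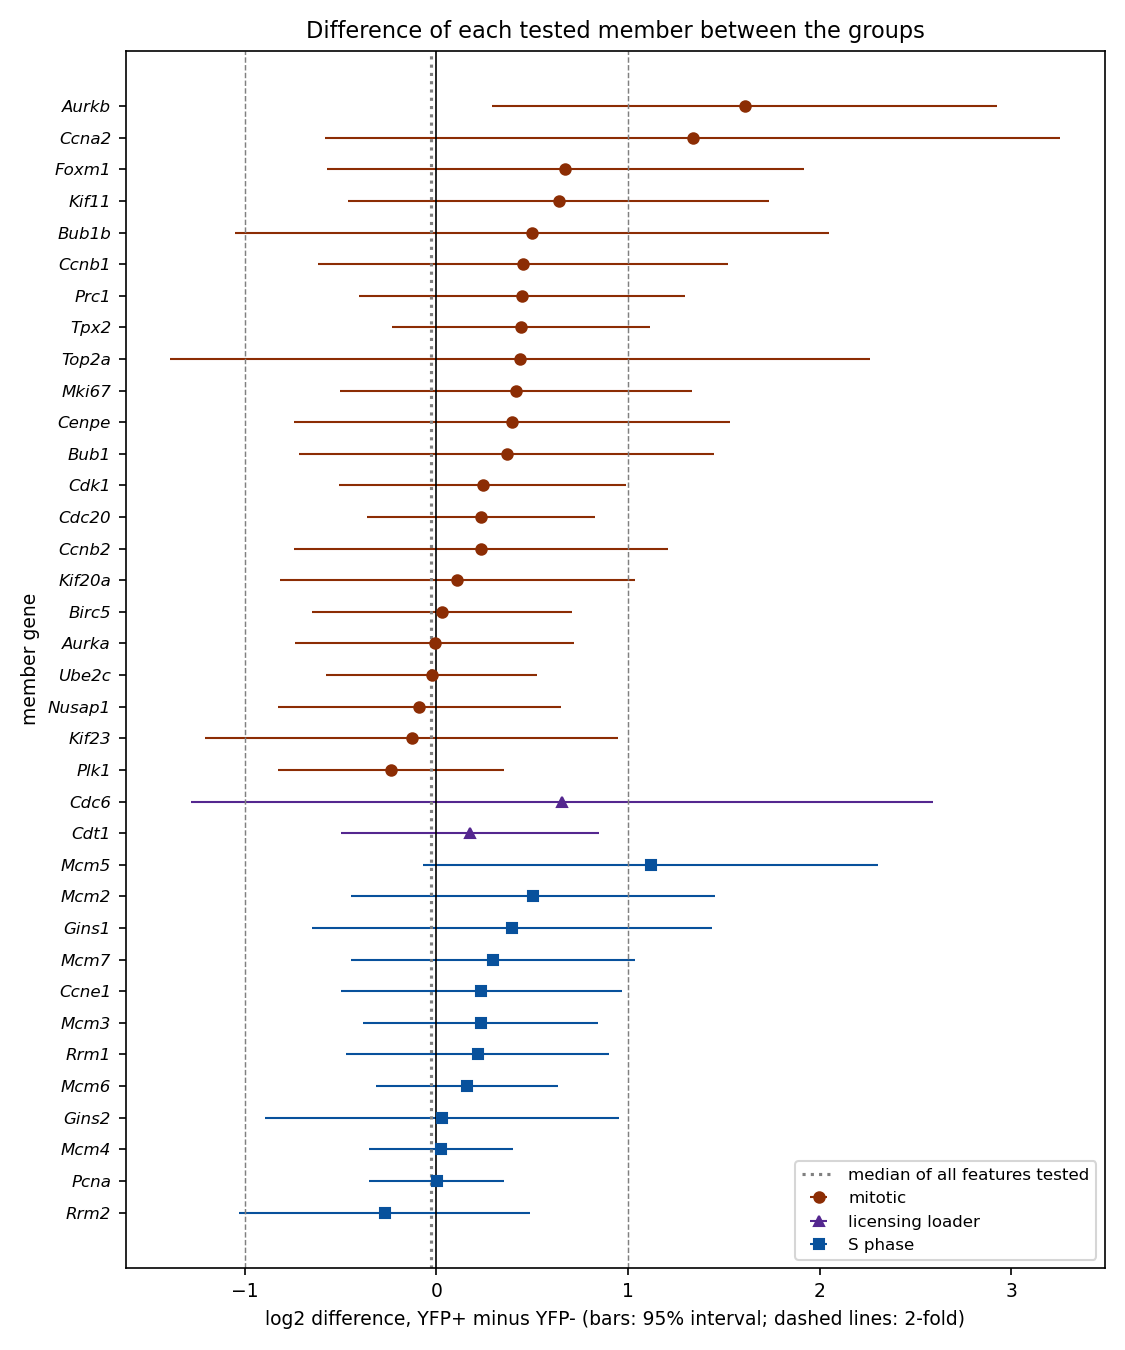
Log2 difference between the mean of 6 YFP+ and 6 YFP- arrays (x axis, YFP+ minus YFP-) for each of the 36 tested members (y axis), with limma's 95% interval as bars. Circles are mitotic members, triangles Cdc6 and Cdt1, and squares S phase members; dashed lines mark 2-fold either way and the dotted line the median of all features. Aurkb has the largest difference, 1.61, and every other interval crosses 0.

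The 22 mitotic members had a median difference of 0.38, with 17 positive and 5 negative, from -0.24 for Plk1 to 1.61 for Aurkb. Values are given as log2 signal relative to the array's 75th percentile, and each belongs to 1 probe and is not comparable with another gene's. Aurkb, the kinase of the chromosomal passenger complex, lay at -3.44, -2.60 and -1.76 in YFP+ arrays (lowest, median and highest of 6) and at -6.91, -3.79 and -3.18 in YFP- arrays. Its difference of 1.61 (SE 0.61, 95% interval 0.29 to 2.93) had an unadjusted p of 0.021 and an adjusted p of 0.30 in limma. The difference was 2.997, 1.36 and 0.46 within slides 1, 2 and 3, 0.91 without slide 1, 1.07 without YFP- tumour 6 and 0.54 with normexp background correction. YFP- tumour 6 lay far below the other arrays and was the 1 array on which the probe was not well above background; the groups overlapped, and YFP+ was higher in all 6 tumour numbers. Ccna2, the A-type cyclin of S phase and G2, lay at -1.85, -1.22 and -0.55 in YFP+ and at -6.45, -1.82 and -0.04 in YFP- arrays. The difference was 1.34 (SE 0.88, interval -0.58 to 3.26, adjusted p = 0.64). YFP- tumours 3 and 6 were the low ones, while YFP- tumour 1 was the highest of all 12.

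Tpx2, a spindle assembly factor that activates Aurora A, lay at -1.89, -1.19 and -0.67 in YFP+ and at -2.43, -1.80 and -0.76 in YFP- arrays, a difference of 0.44 (SE 0.31, interval -0.23 to 1.11, adjusted p = 0.68). The groups overlapped, although YFP+ was higher in all 6 tumour numbers; among the members that held for Tpx2 and Aurkb (2 of 36, against 3.09% of all features). Kif11, the motor that pushes spindle poles apart, lay at -4.05, -3.19 and -2.17 against -5.71, -3.45 and -2.26, a difference of 0.64 (SE 0.51, interval -0.46 to 1.74, adjusted p = 0.73). YFP- tumour 3 was again the low array and the rest of the groups lay together. Aurka, the kinase of the spindle poles, lay at -0.95, -0.87 and 0.05 in YFP+ and -1.51, -0.61 and 0.32 in YFP- arrays, a difference of -0.01 (SE 0.33, interval -0.74 to 0.72). Birc5, the survivin subunit of the passenger complex that holds Aurora B, lay at 1.93, 2.82 and 3.47 against 1.88, 2.87 and 3.41, a difference of 0.03 (SE 0.31, interval -0.65 to 0.71). For Aurka and Birc5 the ranges of the groups nearly coincided, and the intervals stayed within 2-fold.

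Mki67, which encodes the Ki-67 coat of mitotic chromosomes, lay at 0.45, 0.61 and 1.35 in YFP+ and at -1.63, 0.70 and 1.27 in YFP- arrays. The low YFP- array was tumour 2, and the YFP- median was the higher of the 2 medians. The difference of means was 0.41 (SE 0.42, interval -0.50 to 1.33, adjusted p = 0.80). Another Mki67 probe, dimmer but well above background on 6 YFP+ and 6 YFP- arrays, gave 0.11 (SE 0.34). Top2a, the topoisomerase that untangles sister chromatids, lay at -4.52, -3.41 and -2.36 in YFP+ and at -6.67, -3.33 and -1.88 in YFP- arrays, a difference of 0.44 (SE 0.84, interval -1.39 to 2.26, adjusted p = 0.92). YFP- arrays held both the lowest values (tumours 3 and 6) and the highest (tumour 5), and the interval is too wide to bound a 2-fold difference in either direction.

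The other 14 mitotic members had differences from -0.24 to 0.67. Those above 0.4 were Foxm1, the transcription factor of the G2 wave (0.67, SE 0.57), Bub1b, a checkpoint kinase-like protein (0.50, SE 0.71), Ccnb1, the main mitotic cyclin (0.45, SE 0.49), and Prc1, which bundles the central spindle (0.45, SE 0.39). Between 0.1 and 0.4 lay the kinetochore motor Cenpe (0.39), the checkpoint kinase Bub1 (0.37), the mitotic kinase Cdk1 (0.24), the APC/C activator Cdc20 (0.23), the cyclin Ccnb2 (0.23) and the cytokinesis motor Kif20a (0.11). Negative values were those of the APC/C ubiquitin-conjugating enzyme Ube2c (-0.03), the spindle protein Nusap1 (-0.09), the midbody motor Kif23 (-0.13) and the mitotic kinase Plk1 (-0.24). For 7 of the 22 mitotic members the 95% interval lay within 2-fold in both directions, against 44.8% of all features; for 14 it reached beyond 2-fold higher, and for 3 beyond 2-fold lower.

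The 12 tested S phase members had a median difference of 0.22, with 11 positive and 1 negative. Mcm5, a subunit of the MCM ring, had the largest: it lay at -1.51, -0.23 and 0.31 in YFP+ and at -2.74, -2.10 and 0.17 in YFP- arrays, a difference of 1.12 (SE 0.55, interval -0.07 to 2.31, adjusted p = 0.48). Its YFP- arrays were split, with tumours 1 and 4 at the YFP+ level and the other 4 below all YFP+ arrays. Mcm2, its partner in the ring, lay at 0.21, 0.98 and 1.69 against -0.86, 0.51 and 1.58, a difference of 0.50 (SE 0.44, interval -0.45 to 1.46, adjusted p = 0.76). Mcm7 lay at 0.53, 1.53 and 1.83 against 0.35, 0.77 and 1.92, a difference of 0.30 (SE 0.34, interval -0.44 to 1.04, adjusted p = 0.84). Both overlapped over most of their range. Gins1, of the GINS complex that completes the helicase, lay at -0.89, -0.16 and 0.74 against -2.06, -0.36 and 0.63, a difference of 0.39 (SE 0.48, interval -0.65 to 1.44, adjusted p = 0.85).

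At the other end, Pcna, the sliding clamp, lay at 1.58, 1.66 and 1.99 in YFP+ and at 1.40, 1.76 and 1.98 in YFP- arrays. Its difference of 0.00 (SE 0.16, interval -0.35 to 0.35) was one of the best bounded. However, the array's annotation places this probe on another chromosome than Pcna, so the bound may not be the gene's own. The same holds for the probes of Mcm7 and Rrm2. Gins2 lay at -1.43, -0.31 and 0.73 against -1.51, -0.33 and 0.72, a difference of 0.03 (SE 0.43, interval -0.89 to 0.95). The medians of both groups nearly coincided in Gins2, while the arrays spread over more than 4-fold. The 6 others were the ring subunits Mcm3 (0.23), Mcm4 (0.03) and Mcm6 (0.16), the cyclin Ccne1 that starts S phase (0.23), and the reductase subunits Rrm1 (0.22) and Rrm2 (-0.27). Among the S phase members 7 of 12 had an interval within 2-fold. Of the helicase loaders, Cdc6 differed by 0.66 (SE 0.89) and Cdt1 by 0.18 (SE 0.31), both with adjusted p from 0.87 to 0.90.

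**Figure D2:**
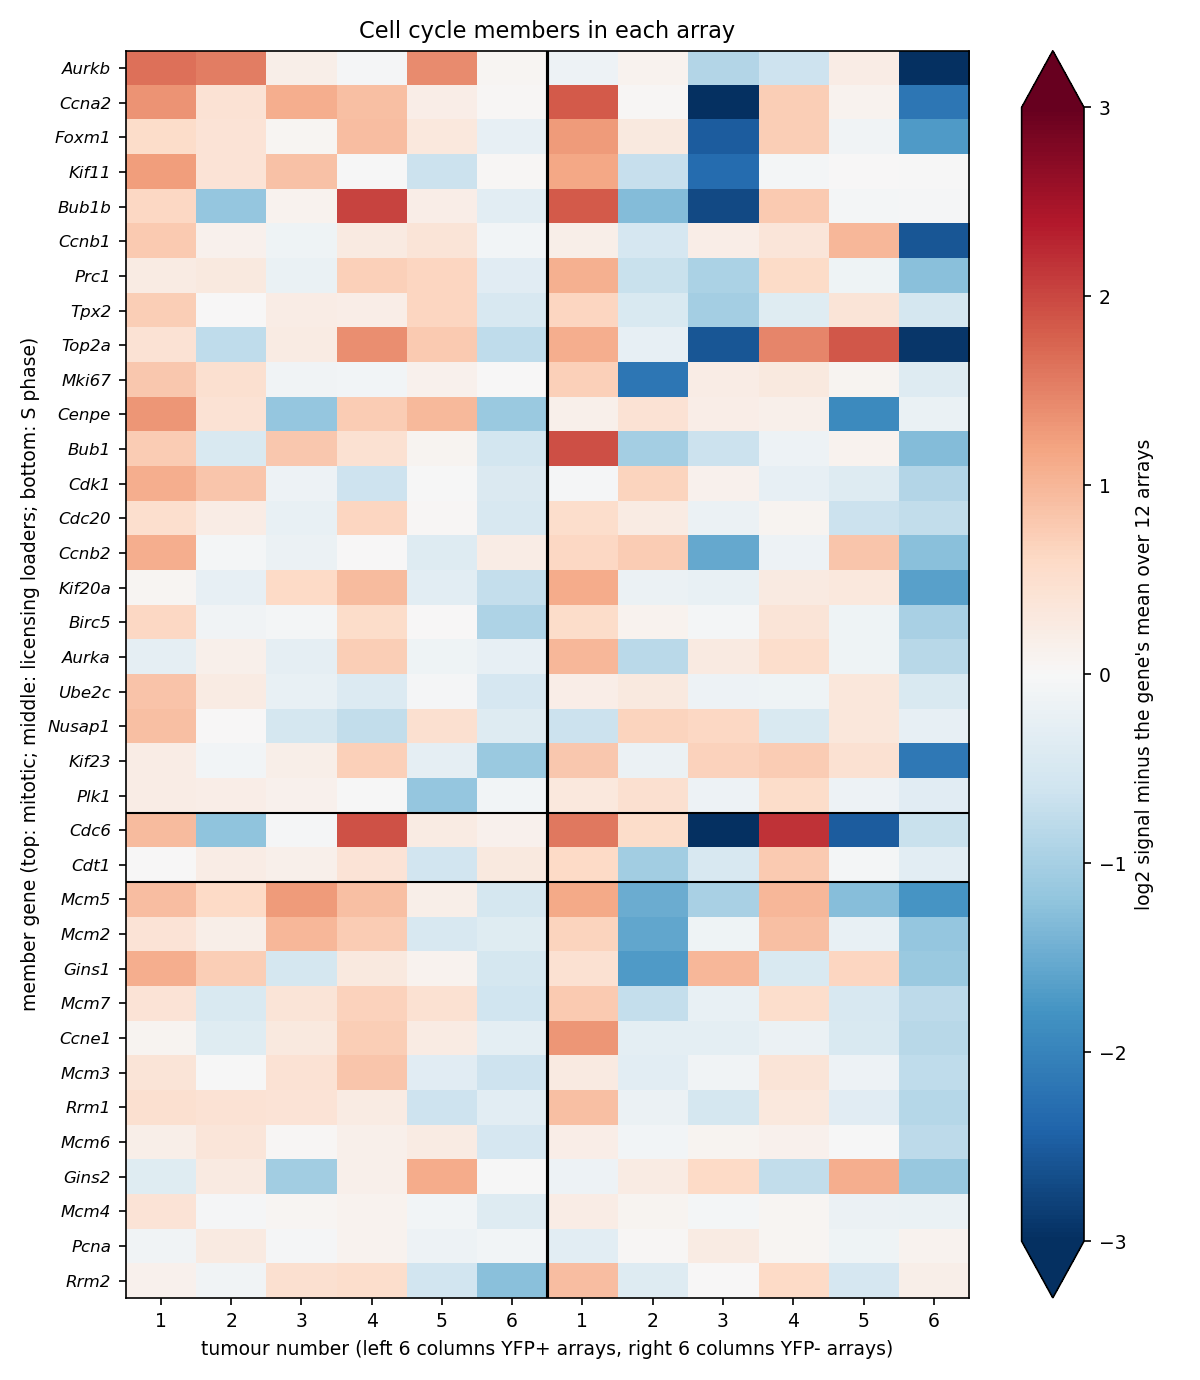
Log2 signal of each tested member (rows) on each array (columns, by tumour number), minus the gene's mean over the 12 arrays; red is above and blue below that mean, and colours saturate at 3. Mitotic members are at the top, Cdc6 and Cdt1 between the lines, S phase members at the bottom. The column of YFP- tumour 6 is blue in most rows and that of YFP- tumour 1 red in most, so arrays of the same group differ from one another.

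Some arrays were the lowest or the highest of the 12 for many members at once. YFP- tumour 6 was the lowest of the 12 arrays for 18 of 36 members, 11 of 22 mitotic and 7 of 12 S phase, while it was lowest for 9.54% of all features. YFP- tumour 3 was lowest for 6 of 22 mitotic members (8.25% of all features) and for 0 of 12 S phase members. Highest for the mitotic members were YFP+ tumour 1 (10 of 22, 11.3% of all features) and YFP- tumour 1 (7 of 22, 6.53%). The mean centred level of the mitotic members was 0.72, 0.13, 0.06, 0.42, 0.15 and -0.38 in YFP+ tumours 1 to 6. It was 0.74, -0.19, -0.82, 0.25, 0.11 and -1.19 in YFP- tumours 1 to 6. The highest and the lowest array were thus both YFP-, and the groups overlapped, at 0.18 ± 0.37 (SD, n = 6) in YFP+ and -0.18 ± 0.71 in YFP-. Among YFP+ arrays too, tumour 1 was the highest and tumour 6 the lowest. Number by number, the YFP+ level was higher in tumours 2 to 6 and slightly lower in tumour 1. These differences in level were not tested.

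For the S phase members the levels were 0.34, 0.16, 0.23, 0.46, 0.01 and -0.46 in YFP+ and 0.53, -0.53, -0.03, 0.22, -0.17 and -0.76 in YFP- tumours 1 to 6. YFP- tumour 1 was again the highest and YFP- tumour 6 the lowest, but YFP- tumour 3, low for mitotic members, lay in the middle. Among YFP+ arrays tumour 4 was the highest and tumour 6 the lowest. Number by number, the YFP+ level was again higher in tumours 2 to 6 and lower in tumour 1. YFP- tumour 6 had a macrophage marker level of 0.10 on the same centred scale, a B and plasma cell level of -1.16 and a dendritic cell level of -1.49, and its 75th percentile of signal was 2727. In YFP- tumour 3 these were 0.25, -1.50, -0.25 and 2121. In YFP- tumour 1 they were -0.30, -0.21, -0.10 and 3329. What part these play in the order of the arrays was not tested.

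**Figure D3:**
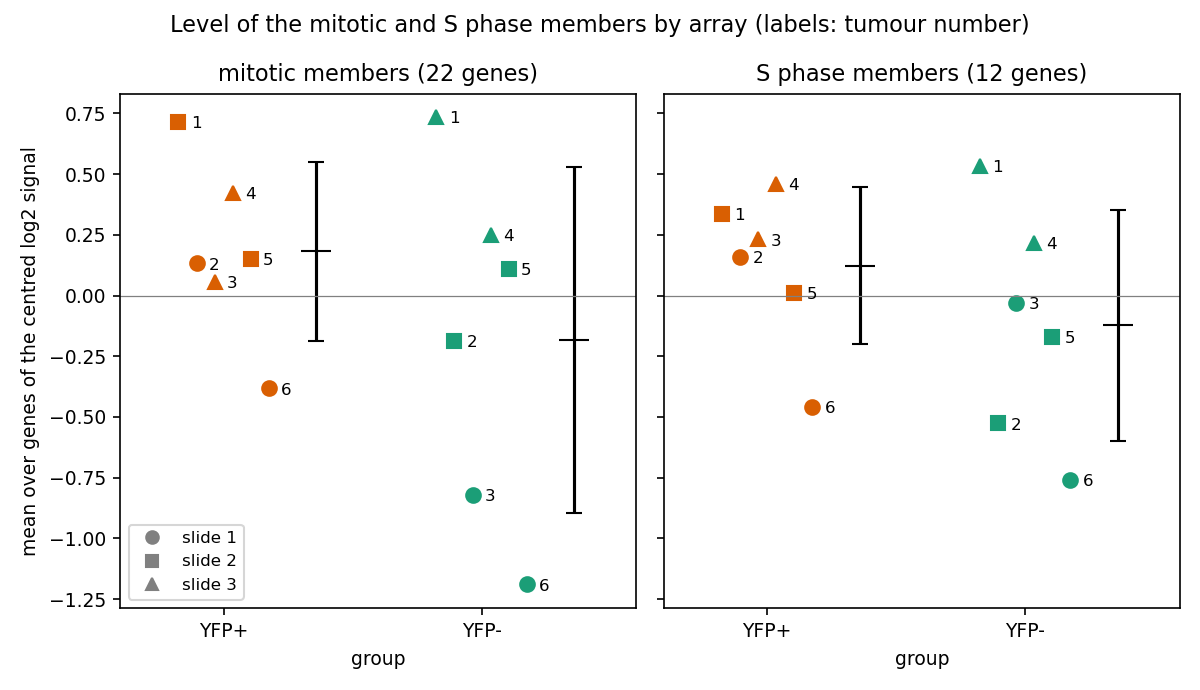
Mean centred log2 signal (y axis) of the 22 mitotic members (left) and the 12 S phase members (right) on each array, by group (x axis); numbers are tumour numbers, shapes are slides, and the black bar gives the mean ± SD of the 6 arrays. The YFP- arrays span -1.19 to 0.74 for the mitotic members and the YFP+ arrays -0.38 to 0.72.

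The mitotic members were more spread out among YFP- than among YFP+ arrays. The SD over the 6 arrays, as a median over the 22 mitotic members, was 0.542 in YFP+ and 0.970 in YFP- arrays, and it was the larger in YFP- for 16 of 22. Over all features it was 0.547 and 0.632, and larger in YFP- for 61.4%. The 17 mitotic members above background on all 12 arrays gave 0.516 and 0.860. Without YFP- tumour 6 the YFP- value was 0.680, and without tumours 3 and 6 it was 0.606, beside 0.588 over all features without both. These arrays had the lowest mitotic levels (-0.82 and -1.19), so a smaller mitotic SD without them follows from that choice. For the 12 S phase members the values were 0.540 and 0.646, with the larger SD in YFP- for 9 of 12, beside 16 of 22 mitotic members, and without tumours 3 and 6 the YFP- value was 0.732. Whether the spread differed between the groups was not tested.

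The 6 of 36 members that were not well above background on every array (Top2a, Ccna2, Bub1b, Aurkb, Kif11 and Cdc6) missed it only on YFP- arrays. Of all 20370 features, 4647 missed it on some YFP- array and 3463 on some YFP+ array. Missing it on YFP- arrays is thus not particular to the members. On YFP+ arrays 0 of 36 members missed it, and whether that differs from all features was not tested. With normexp background correction, which compresses values near background, the mitotic median was 0.02 and the S phase median 0.15, against -0.08 over all features. The 17 mitotic members above background throughout had a median difference of 0.23, and the 5 others 0.64. Those 5 were set apart by low signal on YFP- arrays, so a larger difference follows from the split itself.

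Each of the 3 slides carried 2 arrays of either group, so the comparison can be made within a slide, but between partly different tumours. Slide 1 held YFP+ tumours 2 and 6 and YFP- tumours 3 and 6. There the mitotic median was 0.51, with 19 of 22 positive. On slide 2 (YFP+ tumours 1 and 5, YFP- tumours 2 and 5) it was 0.37, with 17 positive. On slide 3 (YFP+ tumours 3 and 4, YFP- tumours 1 and 4) it was -0.27, with 3 of 22 positive. The S phase medians were 0.20, 0.27 and -0.06, with 8, 10 and 5 of 12 positive. Tumour 1 had the highest mitotic level in both groups. A slide and the tumours on it cannot be told apart, and the difference between slides was not tested. Without YFP- tumour 6 the medians were 0.10 (mitotic) and 0.08 (S phase), and without both arrays of tumour 6, a setting added after the data were seen, 0.22 and 0.16. Without YFP- tumour 3 or without YFP+ tumour 1 the mitotic median was 0.23 or 0.21. In each of these fits 0 members were called. Within each slide 0 of all 20370 features were called, so 0 members says nothing there. The fits with arrays left out called 331, 270, 271 and 309 features, in the order given.

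**Figure D4:**
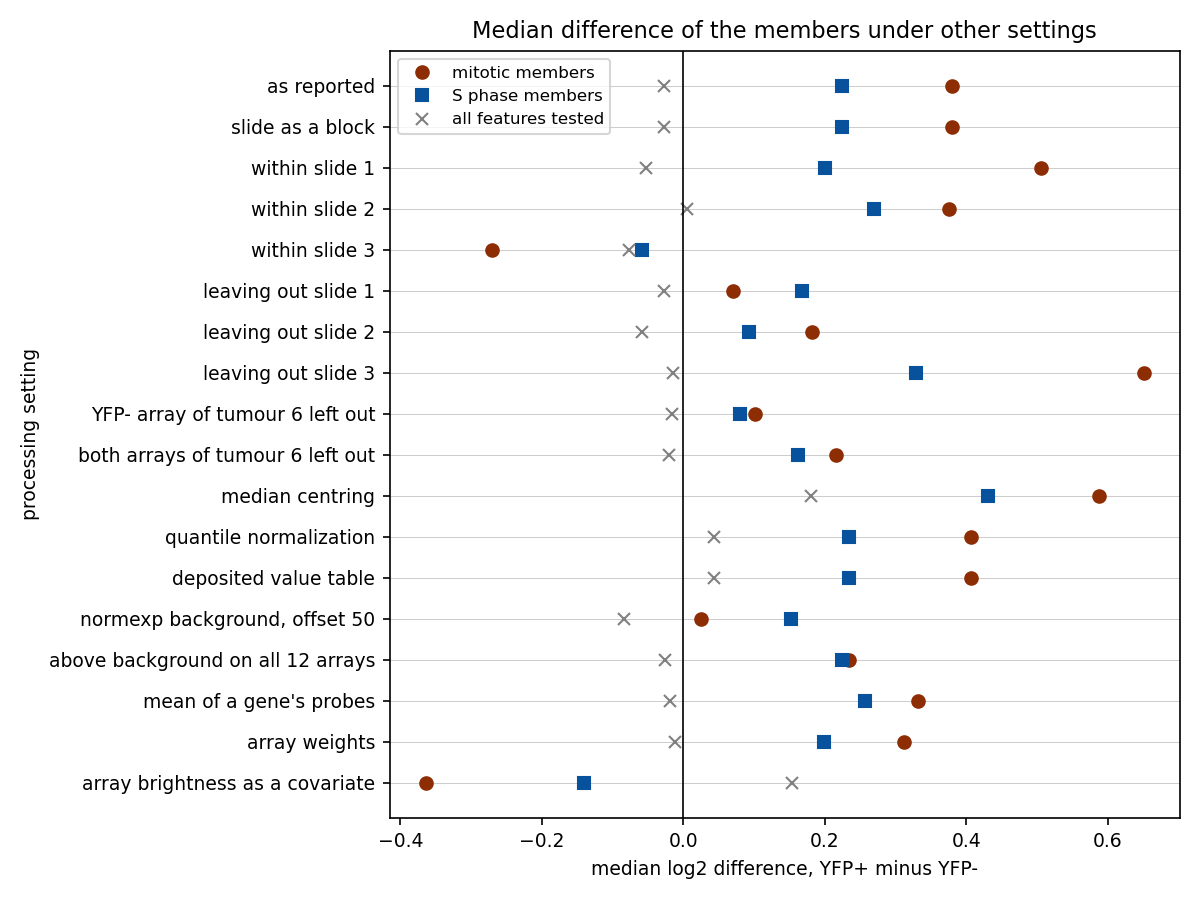
Median log2 difference (x axis, YFP+ minus YFP-) of the mitotic members (circles), the S phase members (squares) and all features tested (crosses) under the reported setting and 17 others (y axis). The mitotic median is below 0 within slide 3 (-0.27) and with array brightness as a covariate (-0.36), and lies between 0.02 and 0.65 in the other settings drawn.

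Where a gene had several tested probes (8 members), they gave the same direction in all but Ccnb1 (0.45, 0.51 and -0.07) and Cdk1 (0.24, 0.24 and -0.56). Survivin's 3 probes gave 0.03, 0.47 and 0.69. The probes used for Ccnb1, Mcm7, Pcna and Rrm2 are placed by the array's annotation on another chromosome than the RefSeq gene, so signal from a near-identical copy cannot be told apart from the gene's own, and these values are uncertain.

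The rest of the pathway gave 1 call among 114 genes tested, no larger a share than the 1.75% of all features called. Of 40 other G1/S and replication genes, 0 were called, 29 were positive, and the median was 0.21. Those with the smallest p were Dnmt1, which copies DNA methylation behind the fork (0.75, SE 0.24, adjusted p = 0.19), the uracil glycosylase Ung (-0.67, SE 0.29, adjusted p = 0.42; fitting slide as a factor gave an adjusted p of 0.041, while quantile normalization gave -0.18 with an adjusted p of 0.69 and brightness as a covariate 0.33 with an adjusted p of 0.74), Dbf4, the activator of the Cdc7 kinase (0.89, SE 0.46, adjusted p = 0.52), and the clamp loader subunit Rfc3 (0.88, SE 0.46, adjusted p = 0.53). Of 45 other G2/M genes, 0 were called, 32 were positive, and the median was 0.23. Their smallest p belonged to separase, Espl1 (0.62, SE 0.22, adjusted p = 0.27), sororin, Cdca5 (0.60, adjusted p = 0.54), the condensin subunit Smc2 (0.51, adjusted p = 0.56) and the centrosome kinase Nek2 (1.67, adjusted p = 0.56). Nek2 was well above background on 3 of 6 YFP- arrays. The array order of both lists resembled that of the members: YFP- tumour 6 was lowest (-1.16 and -0.99) and YFP- tumour 1 highest (0.67 and 0.68).

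Among 29 tested G1 cyclins, kinases, inhibitors and arrest genes 1 was called: Cdkn2a, which encodes the INK4A and ARF growth inhibitors, fell in YFP+ macrophages. It lay at -2.12, -1.36 and -0.53 in YFP+ and at -0.93, 0.64 and 1.35 in YFP- arrays. YFP- tumour 4 lay among the YFP+ arrays and the other 5 YFP- arrays lay above all of them, and YFP+ was lower in all 6 tumour numbers. Its difference was -1.77 (SE 0.38, interval -2.60 to -0.93, adjusted p = 0.038), a 3.41-fold lower signal. Within slides 1, 2 and 3 it was -2.23, -1.22 and -1.85. Cdkn2a still passed the test without YFP- tumour 4 and without YFP+ tumour 1. Leaving out any of the other 10 arrays ended the call (adjusted p = 0.053 to 0.091), and the adjusted p ran from 0.0084 to 0.62 over all settings. The epithelial and fibroblast markers given above were lower in the same arrays, and their part in this result was not tested.

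The median of that list was 0.19, with 18 of 29 positive. Its other genes with the smallest p were Ccnd2, the D-type cyclin common in blood cells (0.59, SE 0.20, adjusted p = 0.24, YFP+ higher in 6 of 6 tumour numbers), the MuvB subunit Lin37 (0.62, SE 0.23, adjusted p = 0.29) and Trp53, which encodes the p53 tumour suppressor (0.48, SE 0.19, adjusted p = 0.34). For Ccnd2 the values within slides were 0.57, 0.71 and 0.49, so its sign did not turn on slide 3 as that of the mitotic median did.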

How the data were processed

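Cy5-labelled amplified cDNA of 12 samples was hybridised to Agilent mouse arrays, per the labels' protocols. The deposited intensity values are the red processed signal of Agilent Feature Extraction 11.5.1.1, per the file headers, with background subtracted and arrays not scaled to each other. A table deposited by the authors holds log2 values. Its columns share a median of 8.83 and equal percentiles, keep the rank order of the scanner values and are not centred by gene; it was used as an alternative. The files hold the red channel, so red signals were used where one-colour arrays usually give green. Control and outlier-flagged spots were dropped, repeated spots averaged, and log2 signals taken relative to each array's 75th percentile. A probe had to be well above background on 6 or more arrays, and the brightest such probe stood for its gene (20370 features). The number of arrays limits the precision.

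The test was limma's (version 3.58.1, run under R 4.3.3), fitted to all 12 arrays with group as the factor, with Benjamini-Hochberg adjustment over all features and a threshold of 0.05; SE and intervals are limma's moderated ones. Summaries and plots used matplotlib 3.10.9, scipy 1.17.1, numpy 2.4.6 and pandas 2.3.3 under Python 3.11.15. On simulated data over 20370 genes, a log2 change of 1 was called in 19 of 100 genes, a log2 change of 2 in 56 of 100, and no change in 2 of 20170. The changed genes were drawn from all genes, with noise independent between genes. The median SE was 0.41 for the members and 0.35 for all features, so these shares need not hold for the members. RefSeq promoter windows were searched on both strands for the words given.

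The members and lists were chosen with earlier results of these data known. Values by array were given for members past the threshold (0), for the 4 smallest and 2 largest p among mitotic and among S phase members, and for Mki67, Top2a, Pcna and Mcm2; from each wider list the 4 genes with the smallest p were named. Marker lists not described in the results, all with 0 called, were endothelial (8 tested, median 0.14), T and NK cell (7, 0.25), neutrophil (9, -1.60) and dendritic cell (8, 0.65). Other settings were the tumour number or the slide as a block, single slides or arrays left out, background correction, normalization, filter, probe choice, variance model, array weights, brightness and threshold. Macrophages of normal pancreas named in the design text were not analysed here.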

Additional observations from a re-analysis of the deposited data

Results flagged for a closer look

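In 6 of 100 groups of 6 arrays, 1 array stood apart from the other 5 by Dixon's criterion; chance gives about 1 in 20 groups. Of these, 3 were YFP- tumour 6. Aurkb lay at -6.91 there, with the other YFP- arrays between -4.28 and -3.18. Kif23 lay at -1.66, with the others between 0.33 and 1.30, and Mcm6 at 1.24, with the others between 1.93 and 2.22. Cenpe was low in YFP- tumour 5 (-2.56, others -0.86 to -0.23), and Plk1 in YFP+ tumour 5 (-2.16, others -1.08 to -0.77). Ccne1 was the 1 high value, in YFP- tumour 1 (0.88, others -1.26 to -0.61).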

How the results depend on the processing

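No member was called under any of 34 other settings, and the lowest adjusted p in limma was 0.084, for Mcm5 without slide 3. The within-slide fits called 0 of all features and the brightness fit 12, so these settings say little about members. Signs were less stable: 144 of 1218 member values had the other sign, and Aurkb alone of 36 members kept its sign in every setting that tested it. The mitotic median was -0.27 within slide 3 and -0.36 with array brightness as a covariate, where the S phase median was -0.14 and that of all features 0.15; in fits without 1 array it ran from 0.10 to 0.50, and the S phase median from 0.08 to 0.36. Median centring moved the median of all features to 0.18, the mitotic median to 0.59 and the S phase median to 0.43; normexp gave -0.08, 0.02 and 0.15. Brightness nearly separates the groups, so the fit with it as a covariate can hardly tell group and brightness apart. The cause of these shifts was not tested.

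Features called numbered 556 with slide as a block, 547 with normexp, 233 with the filter on all 12 arrays, 562 at an adjusted p under 0.1 and 12 with brightness as a covariate. They numbered 151, 112 and 196 without slide 1, 2 or 3 and 0 within each slide (2 against 2 arrays in limma; 1847, 1799 and 1619 at an unadjusted p under 0.05). Genes called in the wider lists numbered 2 with slide as a block (Cdkn2a and Ung), and 0 without each slide, within each slide, with median centring, without a filter, with brightness as a covariate and without both arrays of tumour 6; without 1 array they numbered 0 to 1. 

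Whether equal tumour numbers pair the samples cannot be told from correlations over all features. Same-numbered arrays deviated together with correlations of 0.37, 0.19 and 0.28 for tumours 4, 5 and 6, whose arrays share a slide. For tumours 1, 2 and 3, whose arrays lie on different slides, they were -0.30, 0.11 and -0.13. In these correlations tumour number and slide thus cannot be told apart, and 5 of 12 arrays correlated best with their own number. Mitotic levels had the same order in both groups: tumours 1, 4, 5, 2, 3 and 6 from highest to lowest. Tumours 1, 2 and 3 kept this order although their arrays lie on different slides. The S phase order differed between the groups, and whether these orders reflect pairing was not tested. With the number as a replicate block, 296 features were called (fixed) or 431 (random), and 0 members in both. Signal over background limits Tyms, Ccne2 and the 6 members dim on YFP- arrays.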
